A study of Mus musculus with 6 samples.

Results

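The abundance of 10 transcripts that belong to the amino acid arm of the ATF4 response was followed in A375, an established human melanoma cell line, after Cas9 knockout with guides against YAE1 or ABCE1. The genes were chosen by Ensembl identifier, by a rule that uses no measured value, from a table of 62492 gene identifiers. The list was nevertheless drawn up with earlier results of these data known. They encode asparagine synthetase (ASNS), the serine synthesis enzymes PHGDH, PSAT1 and PSPH, the mitochondrial folate enzymes SHMT2 and MTHFD2, and the transporter subunits SLC7A11, SLC7A5, SLC3A2 and SLC1A5. All 10 identifiers were present in the table and 9 of them averaged at least 1 FPKM (fragment number divided by gene length and by library size), as did 12578 genes in all. ASNS was the member below that level.

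The YAE1 group and the ABCE1 group each held 2 libraries of cells that had received lentivirus with Cas9 and a guide against the named gene. The control group held 2 libraries of cells with Cas9 and a guide against LacZ or Luciferase, sequences that human cells lack, and the labels call their genotype wild type. Cells of all groups went through puromycin selection (10 µg/mL), and RNA was taken 7 days later. Whether libraries of 1 group came from separate cultures, from a pool or a clone, or from different guides is not stated in the labels. The p-values therefore speak only of the spread among these libraries, and that spread may be technical. The organism field reads Mus musculus, although the labels call the cells human and the identifiers in the table are human. The genotype field of the second library of each knockout ends the gene name in 2, and the groups were therefore taken from the titles. YAE1 is an adaptor that helps to place an iron-sulfur cluster on ABCE1, and ABCE1 is an ATPase that splits ribosomal subunits after termination. The levels of the targeted genes and of melanoma markers were not analysed here, because the table pairs no identifier with a gene name and the names of the 10 members come from the definition of the set.

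ATF4 is a transcription factor whose messenger RNA is translated preferentially when the initiation factor eIF2 is phosphorylated, for example when amino acids run short or ribosomes stall. It binds composite C/EBP-ATF elements and raises the transcription of enzymes that make non-essential amino acids and of carriers that import the others. In melanoma cells these genes feed protein synthesis, one-carbon metabolism and glutathione.

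The library totals behind the FPKM values were 15713011 to 18399717.5 fragments, as worked out from the steps of those values, and 15624992.5 to 18296677.5 of them were recovered over the genes. The 9 members above 1 FPKM each had between 743 and 14787.5 fragments in a library, which gives a counting error of 3.67% at the lowest and 0.822% at the highest. The limma test ran on log2(FPKM + 1) over the 12578 genes, and p-values were adjusted over all of them with a threshold of 0.05. Against controls, YAE1 guides gave 4303 higher and 2214 lower genes (66.0% of the calls higher), and ABCE1 guides gave 4715 and 2563 (64.8% higher). When libraries were instead centred on the median gene, this shifted the median of all genes by -0.09 for YAE1 and by -0.10 for ABCE1, and gave 50.4% and 50.6% of calls higher in these comparisons. The median log2 difference of all tested genes was 0.10 in both, so a member at 0 lies below the median gene. Bulk RNA gives the mean of a culture: fewer cells with a transcript and less transcript per cell cannot be told apart.

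The 10 genes did not move as 1 block. With YAE1 guides the serine enzyme PSPH rose, MTHFD2 and PSAT1 fell, and the other 6 tested members did not pass the test. With ABCE1 guides PSPH and the amino acid exchanger subunits SLC3A2 and SLC7A11 rose, PSAT1 and MTHFD2 fell, and PHGDH, SHMT2, SLC7A5 and SLC1A5 did not pass. In the YAE1 comparison 3 of the 9 tested members were called, against 51.8% of all genes tested: 1 was higher (34.2% of all genes) and 2 were lower (17.6%). In the ABCE1 comparison 5 of 9 were called, against 57.9%: 3 were higher (37.5% of all genes) and 2 were lower (20.4%). Of the 9 members 7 had no overlap between groups in each comparison, as did 77.7% of all genes for YAE1 and 81.5% for ABCE1. The share of members called on the authors' scale was near or below the background in both, and the median log2 difference of the 9 members was -0.15 for YAE1 and 0.00 for ABCE1. Both comparisons share the 2 control libraries.

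The YAE1 count of lower members depended on the scaling and the fit, and stood above the share of all genes under the alternatives that raised it. After centring on the median gene 6 of 9 members were lower, against 24.3% of all genes, and 1 was higher, against 24.7%. With quantile normalization 4 of 9 were lower (22.8% of all genes) and 2 higher (24.8%). In limma-voom on recovered fragments 5 of 9 were lower (19.1% of all genes) and 2 higher (37.1%). With a mean of at least 10 fragments in limma-voom, where ASNS was also tested, 5 of 10 were lower (15.9% of all genes) and 2 higher (35.1%). Among genes that averaged 5 FPKM or more, 4 of 9 members were lower (24.5% of all genes).

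**Figure D1:**
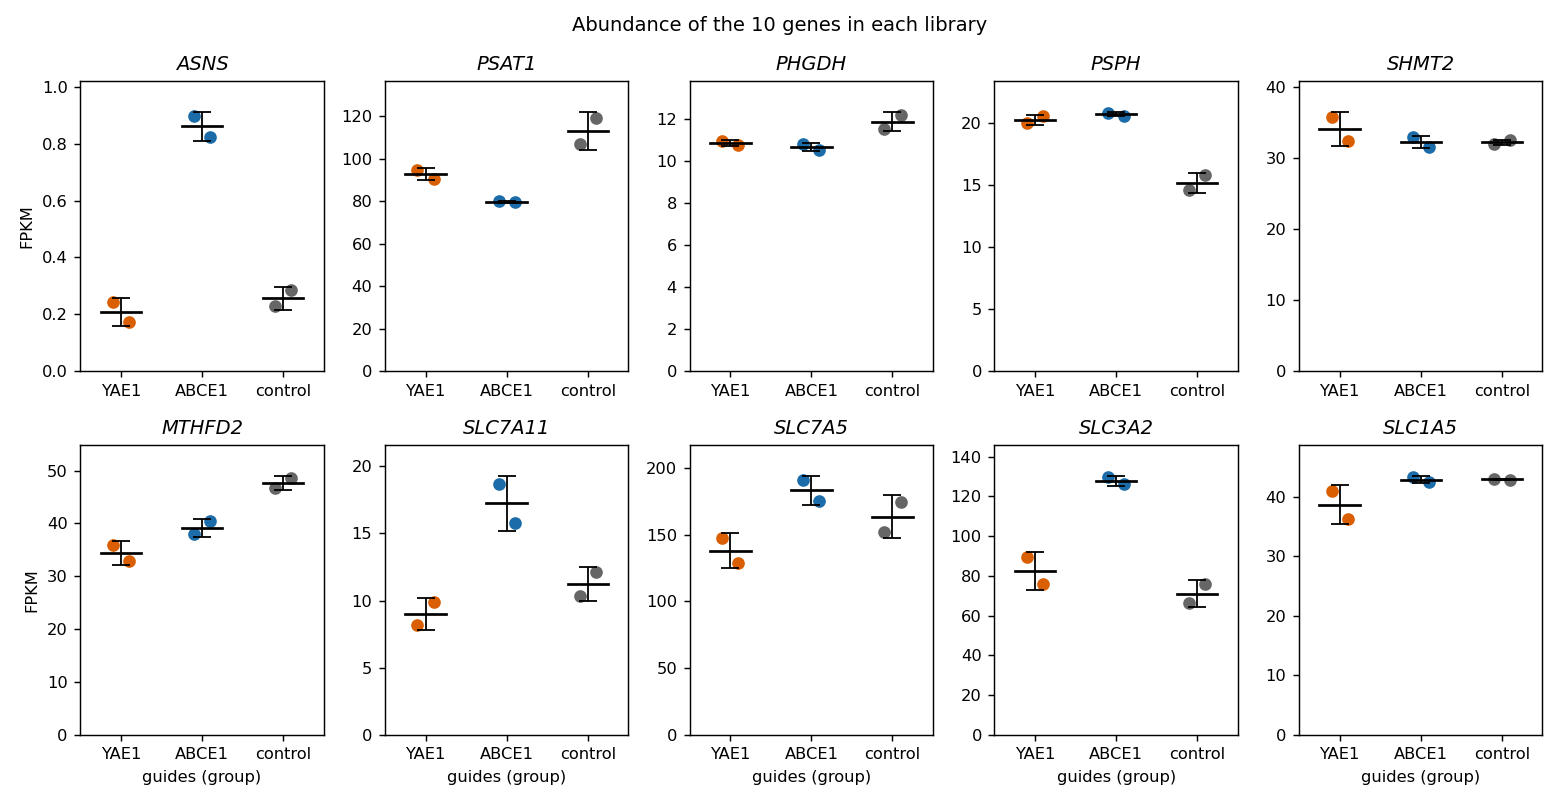
FPKM of each of the 10 genes in each library (points), with the group mean (wide bar) and SD (thin bar, n = 2), for YAE1, ABCE1 and control guides. The axes start at 0 and differ between genes. ASNS, SLC7A11 and SLC3A2 are highest in both ABCE1 libraries, PSPH is lowest in both controls, and PSAT1 and MTHFD2 are highest in both controls.

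ASNS (ENSG00000070669), which makes asparagine from aspartate and glutamine and is among the best known ATF4 targets, was scarce in these cells. It was listed at 0.243 and 0.174 FPKM with YAE1 guides, at 0.897 and 0.826 FPKM with ABCE1 guides and at 0.228 and 0.284 FPKM in controls. Both ABCE1 libraries lay above all 4 others, and the YAE1 libraries overlapped the controls. The values rest on 20 and 14.5 fragments in the YAE1 libraries, 69 and 71.5 in the ABCE1 libraries and 20.5 and 24.5 in the controls. On the FPKM scale the Poisson 95% intervals ran from 0.096 to 0.375 over the YAE1 libraries, from 0.645 to 1.14 over the ABCE1 libraries and from 0.14 to 0.421 over the controls. Each range goes from the lowest to the highest limit of the 2 libraries. The intervals are approximate, because some fragment numbers are not whole, and they cover counting error only. Mean FPKM was 3.37-fold higher with ABCE1 guides than in controls.

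Because its mean was under 1 FPKM, ASNS was outside the main test. It was therefore also tested with limma-voom on recovered fragments over the 16385 genes that averaged 10 fragments or more, a choice made after its level was seen. In that fit ASNS rose with ABCE1 guides by 1.74 ± 0.26 on the log2 scale (SE, limma-voom adjusted p = 2.6e-05), where 37.8% of those genes were called higher. The controls alone met that fragment minimum, so ASNS did not enter through the group in which it was high. With no filter and log2(FPKM + 1), a scale that understates changes of low genes, the log2 difference was 0.57 ± 0.09 (SE, limma adjusted p = 0.016). With YAE1 guides the limma-voom log2 difference from controls was -0.30, with a 95% interval of -1.01 to 0.42 (adjusted p = 0.49, and 0.79 with no filter). YAE1 and ABCE1 cells differed in ASNS by -2.03 ± 0.29 on the log2 scale (SE, limma-voom adjusted p = 4.7e-05, in a fit that called 19.2% of genes lower). With no filter on log2(FPKM + 1) that difference also passed (limma adjusted p = 0.036).

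The serine pathway starts with PHGDH (ENSG00000092621), which oxidises 3-phosphoglycerate. PHGDH had 10.9 and 10.7 FPKM with YAE1 guides, 10.8 and 10.5 FPKM with ABCE1 guides and 11.5 and 12.2 FPKM in controls. All 4 knockout libraries were below both controls, with differences in the mean of -8.59% for YAE1 and -10.2% for ABCE1. Neither difference passed the test, at -0.12 (95% interval -0.24 to 0.0041, limma adjusted p = 0.094) for YAE1 and -0.14 (-0.26 to -0.02, adjusted p = 0.051) for ABCE1. After centring on the median gene both passed, at -0.21 (limma adjusted p = 0.014) and -0.24 (adjusted p = 0.0063). With quantile normalization both passed too, at -0.19 (limma adjusted p = 0.026) and -0.27 (adjusted p = 0.0049). In limma-voom on recovered fragments ABCE1 passed (limma-voom adjusted p = 0.032) and YAE1 did not (adjusted p = 0.072). The differences were -0.08 and -0.11 without control replicate 2, and -0.15 and -0.18 without control replicate 1.

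PSAT1 (ENSG00000135069), the transaminase of the following step, was the most abundant of the 3 serine enzymes on the per-length FPKM scale. It had 94.9 and 90.7 FPKM with YAE1 guides, 80.1 and 79.5 FPKM with ABCE1 guides and 107 and 119 FPKM in controls. The 3 groups were fully separated, with controls highest and ABCE1 lowest. PSAT1 fell by 0.28 ± 0.06 on the log2 scale with YAE1 guides (SE, limma adjusted p = 0.0074) and fell by 0.50 ± 0.06 with ABCE1 guides (adjusted p = 0.00053).

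PSPH (ENSG00000146733), the phosphatase that releases free serine, went the other way. It had 19.98 and 20.6 FPKM with YAE1 guides, 20.8 and 20.6 FPKM with ABCE1 guides and 14.6 and 15.8 FPKM in controls. The knockout libraries all lay above both controls. PSPH rose 1.33-fold in mean FPKM with YAE1 guides (log2 difference 0.39 ± 0.05, SE, limma adjusted p = 0.0011) and 1.36-fold with ABCE1 guides (0.42 ± 0.05, adjusted p = 0.00061). PSPH has a pseudogene of closely related sequence, and the sources used here do not give how the authors counted reads that match both.

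As PSAT1 fell and PSPH rose, the ratio between these consecutive enzymes was lower in all 4 knockout libraries than in both controls. Per library, PSAT1 FPKM was 4.75 and 4.41 times PSPH FPKM with YAE1 guides, 3.85 and 3.86 times with ABCE1 guides and 7.32 and 7.57 times in controls. The ratio does not depend on a scaling factor applied to a whole library, though quantile normalization can change it. Its values did not overlap between any pair of groups. The ratio of PSPH to PHGDH was 1.83 and 1.92 with YAE1 guides, 1.93 and 1.96 with ABCE1 guides and 1.269 and 1.295 in controls. The FPKM of all 3 enzymes added up to 124 ± 2.69 with YAE1 guides, 111 ± 0.810 with ABCE1 guides and 140 ± 10.1 in controls (SD, n = 2 each), a sum set mostly by PSAT1. With 2 libraries a group, exact permutation cannot give a p of 0.05, so ratios and sums are given without a test. The share of other gene pairs whose ratios separate the groups was not worked out.

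SHMT2 and MTHFD2 act one after the other in mitochondria: SHMT2 splits serine into glycine and a one-carbon unit, and MTHFD2 oxidises the folate that carries it. SHMT2 (ENSG00000182199) had 35.7 and 32.4 FPKM with YAE1 guides, 32.8 and 31.6 FPKM with ABCE1 guides and 31.9 and 32.4 FPKM in controls, and the groups overlapped. Its log2 difference was 0.08 with YAE1 guides (95% interval -0.06 to 0.21, limma adjusted p = 0.29) and 0.00 with ABCE1 guides (-0.13 to 0.14, adjusted p = 0.998). The YAE1 difference was 0.15 without YAE1 replicate 2 and passed (limma adjusted p = 0.048), and 0.0086 without YAE1 replicate 1 (adjusted p = 0.89).

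MTHFD2 (ENSG00000065911) had 36.0 and 32.8 FPKM with YAE1 guides, 37.9 and 40.4 FPKM with ABCE1 guides and 46.7 and 48.6 FPKM in controls. The 3 groups did not overlap, with YAE1 lowest. MTHFD2 fell by 0.46 ± 0.06 on the log2 scale with YAE1 guides (SE, limma adjusted p = 0.001) and fell by 0.28 ± 0.06 with ABCE1 guides (adjusted p = 0.0067). Within a library MTHFD2 FPKM was 1.01 and 1.01 times SHMT2 FPKM with YAE1 guides, 1.16 and 1.28 times with ABCE1 guides and 1.46 and 1.499 times in controls, again with no overlap between groups.

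**Figure D2:**
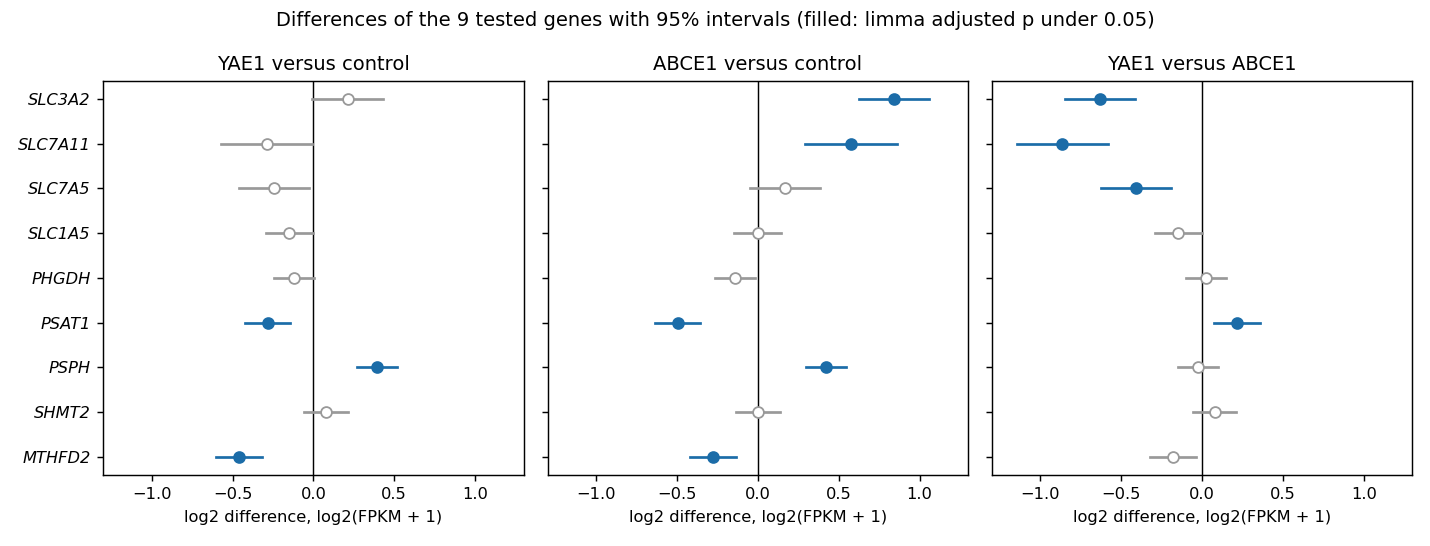
Log2 difference in log2(FPKM + 1) of the 9 tested genes (points) with 95% limma intervals (lines), for YAE1 against control, ABCE1 against control and YAE1 against ABCE1. Filled points passed an adjusted p of 0.05. The exchanger genes SLC3A2 and SLC7A11 pass upward with ABCE1 guides and downward in YAE1 against ABCE1, while PSPH passes upward and PSAT1 and MTHFD2 downward in both knockouts against control.

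SLC3A2 (ENSG00000168003) encodes the heavy chain 4F2hc (CD98), which carries several exchanger light chains to the plasma membrane. It had 89.3 and 75.7 FPKM with YAE1 guides, 130 and 126 FPKM with ABCE1 guides and 66.3 and 75.8 FPKM in controls. Both ABCE1 libraries were above all others, whereas the lower YAE1 library lay within the range of the controls. SLC3A2 rose 1.80-fold in mean FPKM with ABCE1 guides (log2 difference 0.84 ± 0.09, SE, limma adjusted p = 0.00037), which lay 0.74 above the median of all tested genes and was higher than 93.4% of their differences. With YAE1 guides its log2 difference of 0.21 did not pass (95% interval -0.01 to 0.43, limma adjusted p = 0.093). It passed with quantile normalization (0.25, limma adjusted p = 0.04) and in limma-voom on recovered fragments (0.21, limma-voom adjusted p = 0.022). After centring on the median gene it did not pass (0.12, limma adjusted p = 0.29). The difference was 0.33 without YAE1 replicate 2 and 0.31 without control replicate 2, but 0.09 without YAE1 replicate 1 and 0.12 without control replicate 1.

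SLC7A11 (ENSG00000151012) encodes xCT, the light chain that exchanges glutamate for cystine and so supplies cysteine for glutathione. It had 8.18 and 9.87 FPKM with YAE1 guides, 18.7 and 15.8 FPKM with ABCE1 guides and 10.3 and 12.1 FPKM in controls. The groups did not overlap: ABCE1 was highest and YAE1 lowest. SLC7A11 rose 1.54-fold in mean FPKM with ABCE1 guides (log2 difference 0.58 ± 0.12, SE, limma adjusted p = 0.0057). With YAE1 guides the log2 difference of -0.29 did not pass (95% interval -0.57 to -0.01, limma adjusted p = 0.08). It passed after centring (-0.38, limma adjusted p = 0.037) and with quantile normalization (-0.37, adjusted p = 0.048). In limma-voom on recovered fragments it also passed (-0.32, limma-voom adjusted p = 0.015), but with no filter it did not (limma adjusted p = 0.26). The difference was -0.41 without YAE1 replicate 2 and -0.40 without control replicate 1, but -0.17 without YAE1 replicate 1 and -0.18 without control replicate 2.

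SLC7A5 (ENSG00000103257) encodes LAT1, the light chain that imports leucine and other large neutral amino acids, and was the most abundant member in FPKM. It had 148 and 129 FPKM with YAE1 guides, 191 and 175 FPKM with ABCE1 guides and 152 and 175 FPKM in controls. YAE1 libraries lay below both controls, and the lower ABCE1 library (175.5 FPKM) was close to the higher control (174.8 FPKM). Its log2 difference did not pass with YAE1 guides (-0.24, 95% interval -0.46 to -0.02, limma adjusted p = 0.062) or with ABCE1 guides (0.17, -0.05 to 0.38, adjusted p = 0.16). With quantile normalization the ABCE1 difference passed (0.32, limma adjusted p = 0.012). On the authors' scale it was 0.11 without ABCE1 replicate 1 (limma adjusted p = 0.49), 0.07 without control replicate 1 (adjusted p = 0.62) and 0.27 without control replicate 2 (adjusted p = 0.074). The YAE1 difference passed after centring (-0.33, limma adjusted p = 0.018) and among genes that averaged 5 FPKM or more (adjusted p = 0.037). In limma-voom on recovered fragments it also passed (-0.24, limma-voom adjusted p = 0.0094). With quantile normalization it did not (-0.22, limma adjusted p = 0.057). It was -0.34 without YAE1 replicate 1 or without control replicate 1. It was -0.14 without YAE1 replicate 2 or without control replicate 2. SLC7A5 also has pseudogenes of closely related sequence.

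SLC1A5 (ENSG00000105281) encodes ASCT2, a sodium-dependent exchanger of glutamine and other neutral amino acids. It had 41.0 and 36.3 FPKM with YAE1 guides, 43.3 and 42.4 FPKM with ABCE1 guides and 43.0 and 42.9 FPKM in controls. YAE1 libraries were the lowest, and ABCE1 libraries lay on both sides of the controls. Neither knockout passed the test, with a log2 difference of -0.15 for YAE1 (95% interval -0.29 to -0.01, limma adjusted p = 0.077) and 0.00 for ABCE1 (-0.15 to 0.14, adjusted p = 0.987). After centring the YAE1 difference passed (-0.24, limma adjusted p = 0.013), as it did in limma-voom on recovered fragments (-0.15, limma-voom adjusted p = 0.046). With quantile normalization it did not pass (-0.14, limma adjusted p = 0.066). It was -0.23 without YAE1 replicate 1 and -0.07 without YAE1 replicate 2.

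Relative to its light chains, the heavy chain was higher in all 4 knockout libraries than in both controls. SLC3A2 FPKM was 0.605 and 0.588 times SLC7A5 FPKM with YAE1 guides, 0.679 and 0.719 times with ABCE1 guides and 0.436 and 0.434 times in controls. The 3 groups were separate on this ratio. In the main test SLC3A2 alone did not pass with YAE1 guides and SLC7A5 alone passed in neither knockout. Separation is common with 2 libraries a group: 70.2% to 81.5% of single genes did not overlap between 2 groups. Against SLC7A5 and SLC7A11 together the ratio averaged 0.560 ± 0.019 with YAE1 guides, 0.639 ± 0.029 with ABCE1 guides and 0.407 ± 0.0019 in controls (SD, n = 2 each). Between the light chains, SLC7A11 was 0.055 and 0.077 times SLC7A5 with YAE1 guides, 0.098 and 0.090 times with ABCE1 guides and 0.068 and 0.069 times in controls, so that the YAE1 libraries spanned the controls.

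**Figure D3:**
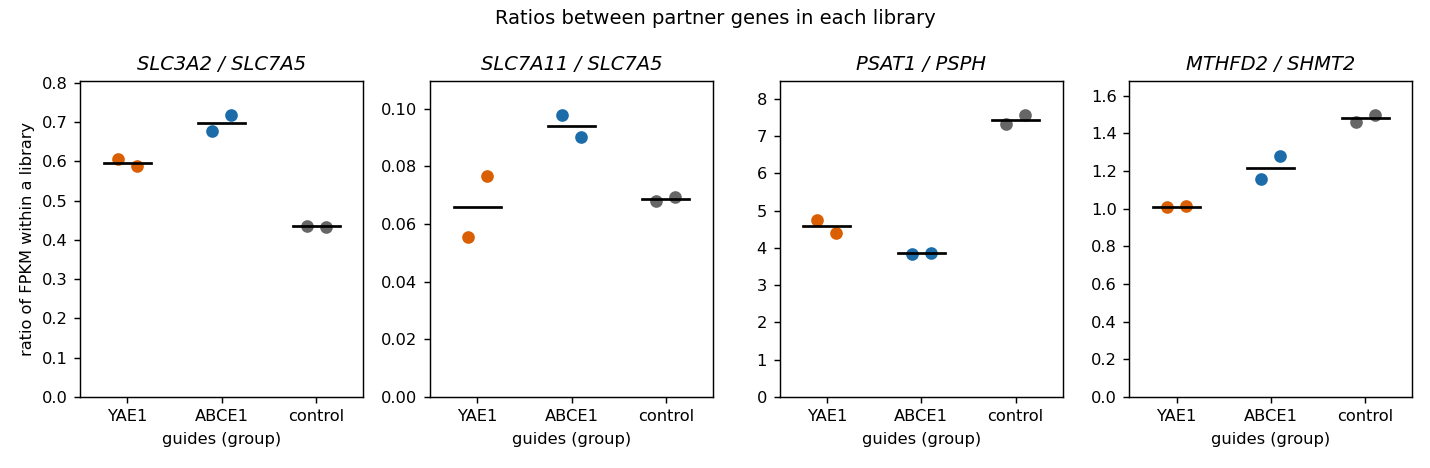
Ratio of FPKM between partner genes within each library (points), with group means (bars), for YAE1, ABCE1 and control guides. SLC3A2 relative to SLC7A5 is lowest in the controls (0.436 and 0.434), PSAT1 relative to PSPH and MTHFD2 relative to SHMT2 are highest in the controls, and SLC7A11 relative to SLC7A5 is highest in the ABCE1 libraries.

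Setting the knockouts against each other tested directly where they differ. Of the 9 tested members 4 passed, against 34.0% of all genes tested. SLC7A11, SLC3A2 and SLC7A5 were lower in YAE1 cells (3 of 9, against 18.7% of all genes), and PSAT1 was higher (1 of 9, against 15.3%). The YAE1 and ABCE1 libraries did not overlap for 7 of 9 members and for 70.2% of all genes. SLC7A11 showed the largest tested difference among them, -0.87 ± 0.12 on the log2 scale (SE, limma adjusted p = 0.0043), with 98.7% of the tested genes at a higher value. SLC3A2 differed by -0.63 ± 0.09 (SE, limma adjusted p = 0.005) and SLC7A5 by -0.41 ± 0.09 (adjusted p = 0.017). PSAT1 was higher with YAE1 guides by 0.21 ± 0.06 (SE, limma adjusted p = 0.032). SLC7A5 no longer passed with no filter (limma adjusted p = 0.096), when ABCE1 replicate 1 was left out (-0.35, adjusted p = 0.093) or when YAE1 replicate 2 was (-0.31, adjusted p = 0.058). PSAT1 no longer passed with no filter (limma adjusted p = 0.13) or when ABCE1 replicate 1 (adjusted p = 0.12), ABCE1 replicate 2 (adjusted p = 0.13) or YAE1 replicate 1 (adjusted p = 0.11) was left out.

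The remaining 5 members did not pass between the knockouts. PSPH differed by -0.03 (95% interval -0.15 to 0.10, limma adjusted p = 0.7) and PHGDH by 0.02 (-0.10 to 0.15, adjusted p = 0.75), so that differences beyond about 0.15 on the log2 scale lie outside both intervals. SHMT2 differed by 0.08 (-0.06 to 0.21, adjusted p = 0.33). MTHFD2 differed by -0.18 (-0.32 to -0.04, adjusted p = 0.054) and SLC1A5 by -0.15 (-0.29 to -0.0039, adjusted p = 0.1). With all libraries MTHFD2 passed in limma-voom on recovered fragments (-0.19, limma-voom adjusted p = 0.022) and among genes that averaged 5 FPKM or more (limma adjusted p = 0.036). It did not pass after centring (limma adjusted p = 0.053) or with quantile normalization (adjusted p = 0.057). SLC1A5 did not pass in limma-voom (-0.15, limma-voom adjusted p = 0.066). Without YAE1 replicate 1 the differences were -0.25 for MTHFD2 and -0.23 for SLC1A5. Without YAE1 replicate 2 they were -0.12 and -0.06.

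**Figure D4:**
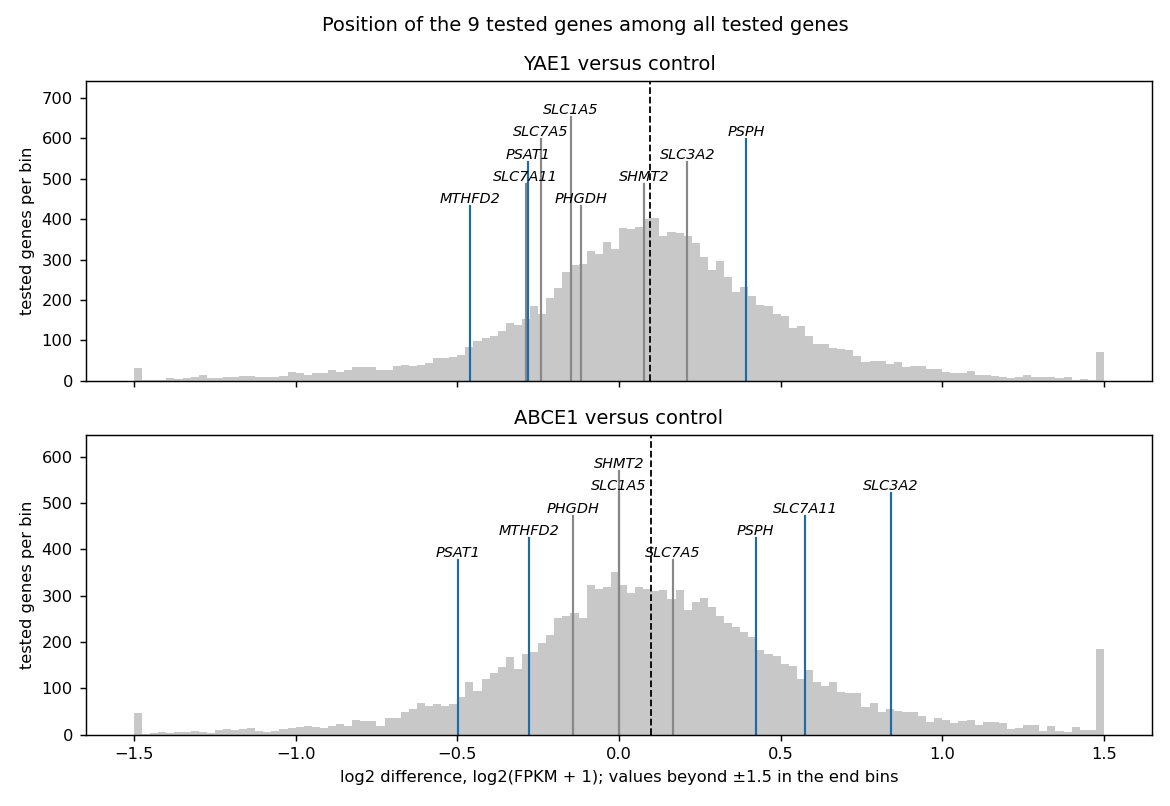
Number of tested genes by log2 difference in log2(FPKM + 1) for YAE1 against control (upper) and ABCE1 against control (lower), with the median of all genes (dashed) and the 9 tested members as vertical lines (blue where called). SLC3A2 is above 93.4% of genes with ABCE1 guides and above 63.6% with YAE1 guides, and PSAT1 and MTHFD2 lie to the left of the median in both.

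By level in the controls, the order of FPKM was SLC7A5, PSAT1, SLC3A2, MTHFD2, SLC1A5, SHMT2, PSPH, PHGDH, SLC7A11 and ASNS. SLC7A5 averaged 163 ± 16.0 FPKM and was above 98.6% of the tested genes, PSAT1 averaged 113 ± 8.80 FPKM and SLC3A2 71.1 ± 6.72 FPKM (SD, n = 2 each). The neighbours PHGDH (11.8 ± 0.457 FPKM) and SLC7A11 (11.2 ± 1.28 FPKM) did not differ beyond their spread (SD, n = 2 each). With ABCE1 guides SLC3A2 (128 ± 2.47 FPKM) stood above PSAT1 (79.8 ± 0.446 FPKM), the reverse of their order in the controls and in the YAE1 libraries, where PSAT1 averaged 92.8 ± 2.95 FPKM and SLC3A2 82.5 ± 9.60 FPKM (SD, n = 2 each), though there the lower PSAT1 library (90.7 FPKM) and the higher SLC3A2 library (89.3 FPKM) were close. Summed over the 4 transporter genes, FPKM was 286 and 251 with YAE1 guides, 383 and 360 with ABCE1 guides and 272 and 306 in controls, so that only the ABCE1 libraries lay outside the control range on the upper side.

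The genes most like the members as a whole, by Pearson correlation over the 6 libraries with the mean of the members' standardized log2 values, were ENSG00000175416 (r = 0.9903) and ENSG00000155115 (r = 0.988). The likeness is a description of 6 libraries in 3 groups. The mean pattern of the members, some of which rose while others fell, was shallow, and ENSG00000175416 averaged 23.2 ± 0.816 FPKM with YAE1 guides, 24.7 ± 0.633 FPKM with ABCE1 guides and 24.3 ± 0.702 FPKM in controls (SD, n = 2 each).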

How the data were processed

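RNA sequencing of 6 A375 libraries (2 per group) was analysed. The authors deposited 1 table of FPKM values with a column per library. Per the submitters' processing notes the genome build was GRCh37. Not given in the sources used here are the aligner, the counting program, its use of strand and the annotation. Of the 62492 identifiers 0 matched the reference tables used here, which are for mouse, so the lists of other pathway genes and of cell markers were not analysed here and no sequence or position is shown. The 10 members and the lists were chosen with earlier results of these data known.

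Fragment numbers were worked out from the deposited FPKM steps for 38268 of 38269 genes above 0, to a tolerance of 2e-05. Steps of 0.5 fragments occurred, and 53.0% of the values above 0 were whole. Summed over genes, they made up 99.4% or more of each library's total. This recovery and the limma test were run on simulated data with known answers.

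Genes were kept when they averaged 1 FPKM or more. The 10 members were all named by rule, and the most like genes needed a mean of at least 5 FPKM. Tests used limma 3.58.1 in R 4.3.3 on log2(FPKM + 1), a mean per group, all 6 libraries, eBayes with a trend and Benjamini-Hochberg adjustment (3 residual degrees of freedom). The added 1 FPKM makes changes of low genes look smaller. Alternatives were other pseudocounts, filters and scalings, limma-voom on recovered fragments, fewer libraries and a replicate block.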

Additional observations from a re-analysis of the deposited data

Results flagged for a closer look

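The effects of the YAE1 and ABCE1 guides, each against the same controls, were compared by a test of the difference itself. It passed for 4 of the 9 members in the main test, where 34.0% of all genes were called. It also passed for ASNS, which was tested apart from them in a limma-voom fit that called 19.2% of genes lower. ASNS was lower with YAE1 guides than with ABCE1 guides (log2 difference -2.03, limma-voom adjusted p = 4.7e-05, and limma adjusted p = 0.036 with no filter on log2(FPKM + 1)). With YAE1 guides SLC7A11 was lower than in ABCE1 cells (log2 difference -0.87, limma adjusted p = 0.0043, and 2e-06 to 0.036 over the other settings). SLC3A2 was also lower (-0.63, limma adjusted p = 0.005, and 3.6e-06 to 0.04 over the other settings). SLC7A5 was lower as well (-0.41, limma adjusted p = 0.017) and PSAT1 was higher with YAE1 guides (0.21, limma adjusted p = 0.032), both with calls that were lost under some settings. Groups of 2 libraries were too small for a search for outlying samples.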

How the results depend on the processing

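Of 27 differences tested for the members 12 were called. Of all genes 51.8% were called for YAE1 against control, 57.9% for ABCE1 against control and 34.0% between the knockouts. Of the 12 member calls 10 kept their call and direction under all 14 alternative settings, a share that was not worked out for all genes. The exceptions were SLC7A5 and PSAT1 between YAE1 and ABCE1 guides. Of the 15 not called 10 passed under at least 1 of these settings, and 6 of these were in the YAE1 comparison against control. There 2 members were lower (17.6% of all genes), but 6 with centring (24.3% of all genes), 5 with limma-voom (19.1%, and 15.9% with a mean of at least 10 fragments), 4 with quantile normalization (22.8%), 4 when genes had to average 5 FPKM (24.5%) and 2 to 4 when a library was left out (11.997% to 17.01%). Members higher numbered 1 (34.2% of all genes), but 2 with quantile normalization (24.8%) or either limma-voom (37.1% and 35.1%) and 1 to 3 when a library was left out (24.1% to 32.2%). With ABCE1 guides members lower numbered 2 (20.4% of all genes). PHGDH made them 3 with centring (3530 genes in all), quantile normalization (3571), either limma-voom (2724 and 3002) or a mean of at least 5 FPKM (1916). Members higher numbered 3 (37.5% of all genes), but 4 with no filter (4798 of 38269 genes tested), where ASNS was added. They also numbered 4 with quantile normalization (3436 of 12578 genes tested), where SLC7A5 was added. In limma-voom with a mean of at least 10 fragments they numbered 5 (37.8% of all genes), where both were added. Between YAE1 and ABCE1 guides 3 members were lower, but 5 in that limma-voom fit (18.7% and 19.2% of all genes) and 2 to 5 when a library was left out (7.76% to 16.5%). Members higher numbered 1 there, and 0 to 1 when a library was left out (15.3% of all genes, and 6.64% to 13.05%). It was 0 with no filter (907 of 38269 genes tested) and 0 with the replicate block in limma (1675 of 12578). Each had 1 member at an unadjusted p under 0.05. Members lower between these guides numbered 4 in limma-voom over the main genes (2786 of 12578), where MTHFD2 was added. They also numbered 4 with a mean of at least 5 FPKM (1705 of 7047), again with MTHFD2 added.

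Over all genes, a mean of at least 5 FPKM gave 2845 higher with ABCE1 and 2621 with YAE1 guides. Between YAE1 and ABCE1 guides, no filter gave 907 higher and 1184 lower, and leaving out a library gave 835 to 1641 higher and 976 to 2080 lower. The groups share replicate numbers, but the labels do not say what a number marks. The differences between replicates 1 and 2 correlated at -0.05 to -0.01 between groups, so no effect shared by a number was seen. The main test therefore did not pair the libraries, although this correlation cannot show what a number marks. With the replicate block PSAT1 was not called between YAE1 and ABCE1 guides (0.21, limma adjusted p = 0.051), and no other member's call changed. The causes of these changes were not tested. ASNS had 14.5 to 71.5 fragments a library and was outside the main test through the minimum of 1 FPKM.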
